A study of Mus musculus with 34 samples.

Results

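A set of 10 genes was followed that stood apart between Arid1a heterozygous (Het) and control (WT) liver tumors of mixed-strain mice: Pkdcc, P2ry14, Rundc3b, D16Ertd472e, Chad, Aspdh, Dmpk, Tuba8, Cd109 and Pcdh19. They are 10 of 47049 gene symbols in the 3 deposited tables, and they were picked because their Het and WT values differed clearly in the mixed-strain table. That contrast therefore describes them and does not test them. All 10 were listed for the FVB tumors and 6 for the Rag1-/- livers, where Rundc3b, Tuba8, Cd109 and Pcdh19 had no row. Of the 17552 genes tested in the mixed-strain table, 28 passed (0.160%), and the 10 genes ranked between 1 and 25 by p. The other 18 that passed there were Cyfip2, Tusc5, Igfbp2, Gm6420, Slc22a8, Chil3, Azgp1, Piezo2, Aoc3, Sec14l4, Cd163, Rec8, Arhgef19, Rbp2, St3gal5, Ocln, Cbs and Bach1.

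RNA sequencing was done on frozen mouse liver tumors driven by MYC. In these mice a liver promoter (LAP) drives the tTA activator, which turns on a TRE-MYC transgene once doxycycline is withdrawn. Every tumor group carried both transgenes, and the Arid1a alleles were floxed and deleted by Alb-cre, a recombinase made in hepatocytes. The questions were whether the mixed-strain pattern was also found in tumors of the FVB strain and whether it turned around after ARID1A was supplied. The mixed-strain mice had a C57/B6, 129 and FVB background and were about 90 days old. Their 8 WT libraries carried Arid1a fl/fl with no Alb-cre, and their 8 Het libraries carried Arid1a fl/+ with Alb-cre. The FVB mice gave 4 WT libraries (fl/fl, no Alb-cre, about 55 days old), 4 Het libraries (fl/+ with Alb-cre, about 70 days) and 4 Homo libraries (fl/fl with Alb-cre, about 100 days), so age and genotype cannot be told apart there. The third experiment used livers of Rag1-/- LAP-MYC mice on FVB, which lack mature B and T cells, were wild type for Arid1a and were about 42 days old. They were taken 14 days after injection of an adenovirus with human ARID1A (ad-ARID1A, 3 libraries) or Cre (ad-Cre, 3 libraries). Whether the samples of a group were different animals is not stated in the labels, and a p-value here reflects the scatter among samples alone.

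ARID1A binds DNA as part of SWI/SNF, a remodeling complex that moves nucleosomes and opens enhancers and promoters. Its loss lowers or raises the transcription of many genes, and in liver it has been linked to both tumor start and tumor spread. The 10 genes share no single pathway. Pkdcc, P2ry14, Cd109, Pcdh19 and Chad code for secreted or cell-surface proteins, Aspdh and Dmpk for enzymes, Rundc3b and Tuba8 for proteins of the cell interior, and D16Ertd472e carries only a locus name here.

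The genes lie on 9 chromosomes, none of them chromosome 4, which holds Arid1a (GRCm38, GENCODE). Aspdh (chromosome 7, 44465391 to 44467758) and Dmpk (chromosome 7, 19083849 to 19093821) share one. Exons of Tuba8 (chromosome 6, 121210696 to 121226854) overlap the opposite-strand gene Gm15856, and exons of Pcdh19 (X, 133582860 to 133688987) overlap the opposite-strand gene Gm26851. The sources used here do not give whether reads were counted by strand, so reads of these pairs cannot be told apart. The other 8 genes shared no exon with another annotated gene.

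The 250 bases before the annotated start (RefSeq, GRCm38.p6) were searched on both strands in the 9 genes with an entry; Cd109 had none. Windows of 3 genes are shown because each holds a match to a motif of a transcription factor active in liver, marked in capitals, each in the direction of its gene. For P2ry14 (chr3:59153493-59153742, minus strand, the first of 4 annotated starts) the capitals mark TGANTCA, the AP-1 motif. In Aspdh (chr7:44465185-44465434, plus strand) they mark CAAAGTCCA, the core of an HNF4A site, and in D16Ertd472e (chr16:78576689-78576938, minus strand) CACGTG, the E-box that MYC can bind.
P2ry14: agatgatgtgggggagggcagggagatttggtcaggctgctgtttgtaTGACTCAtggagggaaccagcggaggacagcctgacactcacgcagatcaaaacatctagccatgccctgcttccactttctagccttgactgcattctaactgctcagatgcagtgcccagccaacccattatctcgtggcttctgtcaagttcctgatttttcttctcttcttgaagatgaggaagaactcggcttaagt
Aspdh: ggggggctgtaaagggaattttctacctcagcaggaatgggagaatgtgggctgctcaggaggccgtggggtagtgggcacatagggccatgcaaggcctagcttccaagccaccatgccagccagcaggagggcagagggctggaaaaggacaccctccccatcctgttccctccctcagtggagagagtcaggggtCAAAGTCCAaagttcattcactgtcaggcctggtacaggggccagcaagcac
D16Ertd472e: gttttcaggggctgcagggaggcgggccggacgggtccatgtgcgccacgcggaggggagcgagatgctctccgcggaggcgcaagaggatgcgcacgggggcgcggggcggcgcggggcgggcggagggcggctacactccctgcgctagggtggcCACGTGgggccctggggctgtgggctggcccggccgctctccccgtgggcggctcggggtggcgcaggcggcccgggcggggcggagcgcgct
Over 32851 RefSeq promoter windows of the same length, 6.75% held TGANTCA, 6.02% CACGTG and 0.384% CAAAGTCCA. TGANTCA was also found at another P2ry14 start, CACGTG before Tuba8, and TATAAA, present in 12.4% of windows, before Chad and at the last P2ry14 start. That start also held TTGCNNAA, the C/EBP motif (9.56% of windows). The windows of Pkdcc, Rundc3b, Dmpk and Pcdh19 held none of these letters, nor TGACCTTTG (0.426% of windows), a nuclear receptor motif, nor the HNF1 motif (0.00913%). No match overlapped another in the windows shown, and a match is a description of the letters only.

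Depth differed between the tables. The mixed-strain libraries held 2.25 to 5.28 M reads, the FVB libraries 6.63 to 12.04 M and the Rag1-/- libraries 8.72 to 10.61 M, as recovered from the steps between low values. Levels are given as CPM, a read count per fixed library size, not corrected for gene length. Arid1a itself was 250 to 330 CPM in mixed-strain Het and 314 to 490 in WT, with overlapping groups. Its log2 difference was -0.41 ± 0.09 (SE, adjusted p = 0.083, limma). It did not pass in any FVB comparison, at -0.32 for Het and -0.35 for Homo against WT, and Homo minus Het was -0.03. In the Rag1-/- livers it did not pass either, at 0.15. There the virus carried human ARID1A and reads were mapped to the mouse genome, so this value need not measure the supplied gene. Alb, the main hepatocyte secretory product, ran from 346 to 1140 CPM in the mixed-strain tumors, from 942 to 4870 in the FVB tumors and from 36600 to 46000 in the Rag1-/- livers. Along the first principal component of the FVB table (26.5% of variance) WT 1 and WT 2 scored 57.5 and 73.7, while the other 10 libraries lay between -24.1 and 8.2. In the mixed-strain table WT 2 (90.7 on the first component) and Het 5 (107.6 on the second) lay farthest out. Values that move most without these libraries are given both ways.

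In mixed-strain Het tumors 8 of the 10 genes were lower and 2 were higher than in WT tumors. Among the genes of secreted and surface proteins, Pkdcc, a secreted tyrosine kinase that phosphorylates matrix and secretory proteins, had the clearest gap. Pkdcc ran from 33.3 to 88.3 CPM in WT (median 65.7) and from 5.92 to 23.8 in Het (median 7.17), a log2 difference of -2.70 ± 0.26 (SE, n = 8 and 8). The lowest WT library lay above the highest Het library. P2ry14, a receptor for UDP-glucose, ran from 12.1 to 29.3 CPM in WT (median 21.0) and from 5.11 to 8.99 in Het (median 6.11), a log2 difference of -1.58 ± 0.19. Its groups did not overlap either. Chad codes for chondroadherin, a leucine-rich repeat protein of cartilage matrix, and was sparse in these livers. Chad ran from 2.61 to 28.0 CPM in WT (median 8.93) and from 0 to 2.89 in Het (median 0.877), a log2 difference of -2.80 ± 0.43. A single WT library fell inside the Het range, and the Het values rest on 0 to 13 reads per library.

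Cd109 and Pcdh19 were the 2 genes that were higher in mixed-strain Het. Cd109 is a GPI-anchored protein of the alpha-2-macroglobulin family that binds TGF-beta, and it ran from 0.505 to 4.46 CPM in WT (median 2.39) and from 4.74 to 30.3 in Het (median 8.33). The log2 difference was 1.94 ± 0.37, with no overlap but a narrow gap between the highest WT and the lowest Het library. Without WT 2 and Het 5 it was 1.64. Pcdh19, an X-linked delta-protocadherin that joins cells, ran from 0.647 to 3.41 CPM in WT (median 1.99) and from 3.69 to 12.7 in Het (median 6.54), a log2 difference of 1.71 ± 0.30. Its gap was as narrow. The Y-linked Ddx3y was read at 97.4 CPM or more in every mixed-strain library of both groups, so the sex-linked reads gave no split along the Pcdh19 groups.

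Of the enzyme genes, Aspdh, a protein of the aspartate dehydrogenase family, ran from 19.7 to 40.4 CPM in WT (median 28.0) and from 5.96 to 16.9 in Het (median 12), a log2 difference of -1.28 ± 0.20. Dmpk, the myotonic dystrophy protein kinase, ran from 29.1 to 51.7 CPM in WT (median 35.6) and from 8.38 to 23.4 in Het (median 16.9), a log2 difference of -1.19 ± 0.19. Neither gene's groups overlapped, although these were the smallest differences of the set. Rundc3b, a RUN domain protein of a family tied to small GTPases and vesicle traffic, had the largest difference. Rundc3b ran from 6.16 to 32.8 CPM in WT (median 21.5) and from 0.495 to 12.7 in Het (median 1.03), a log2 difference of -3.18 ± 0.46. The overlap came from Het 2 at 12.7 CPM and WT 2 at 6.16 CPM. The next Het library was at 2.43 and the next WT library, WT 5, at 13.9. The median Het library held 4 Rundc3b reads.

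Tuba8, an alpha-tubulin variant, ran from 3.08 to 14.3 CPM in WT (median 5.83) and from 0 to 2.94 in Het (median 1.32), a log2 difference of -2.07 ± 0.37. D16Ertd472e ran from 3.96 to 24.3 CPM in WT (median 11.3) and from 0.569 to 2.73 in Het (median 1.06), a log2 difference of -2.67 ± 0.39. For both genes the groups stayed apart by a gap that was small in CPM, and Het levels came from 0 to 13 reads for Tuba8 and 3 to 12 for D16Ertd472e. In all, 8 of the 10 genes showed no overlap, with Rundc3b and Chad the exceptions, against 0.137% of the genes tested in this table. Because the genes were chosen on this contrast, nothing is read from that count. Without WT 2 and Het 5 the 8 lower genes lay between -3.32 (Rundc3b) and -0.99 (Dmpk) and Pcdh19 at 1.49, and Cd109 and Pcdh19 were no longer among the genes of the table that passed.

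**Figure D1:**
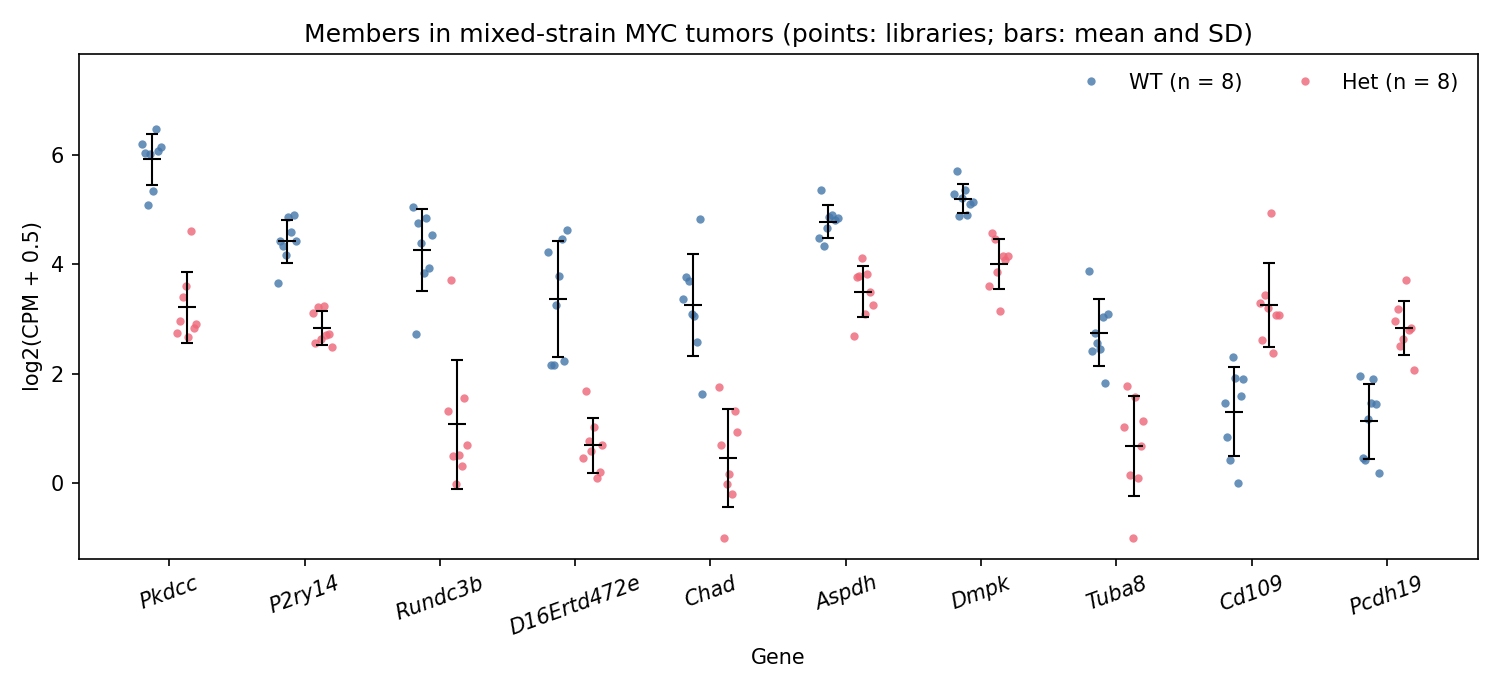
Levels of the 10 genes in mixed-strain tumors as log2(CPM + 0.5), 8 WT and 8 Het libraries per gene, points for libraries and bars for mean and SD. The 8 others sit lower in Het and Cd109 and Pcdh19 higher, and Het 2 is the high point of Rundc3b at 12.7 CPM.

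The nearest 2 tested genes on either side of each of the 10 were examined in the mixed-strain table. Some lay far off, with gaps of up to 11480.4 kb for Pcdh19, 6197.4 kb for D16Ertd472e and 1476.9 kb for Pkdcc. Of these neighbors, 40 in all, 1 lay past a log2 difference of 1. This was Abcb1a, which codes for a drug efflux pump, 37.1 kb from Rundc3b, at -3.78 ± 0.86 in mixed-strain Het, and at -0.99 in FVB Het. The groups of Abcb1a overlapped, as did those of the other 39 neighbors.

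**Figure D2:**
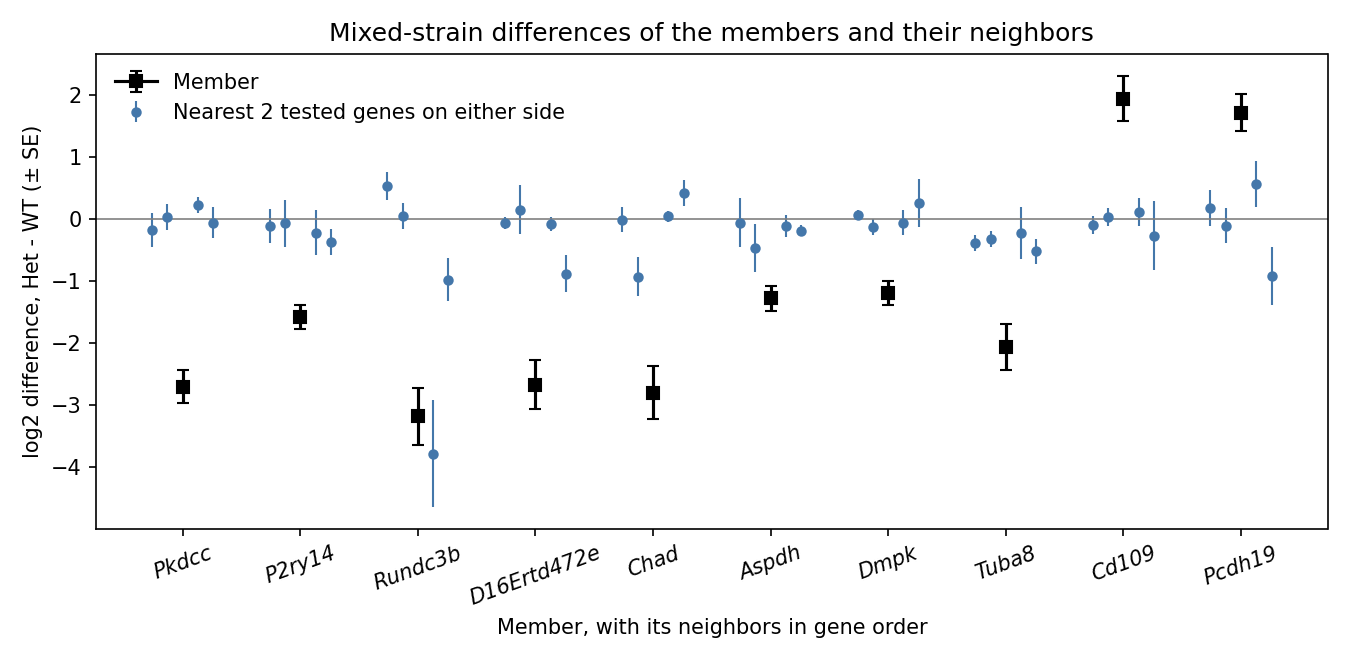
Mixed-strain log2 difference, Het minus WT, with SE, of each of the 10 genes (squares) and of its nearest 2 tested genes on either side (circles) in chromosome order. Only Abcb1a beside Rundc3b, at -3.78, lies past 1 in either direction among the neighbors.

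Other cell types were followed with marker lists, since in bulk tissue fewer cells of a type and less RNA per cell cannot be told apart. In mixed-strain Het, all 17 hepatocyte markers were lower (median log2 difference -0.56, against 0.05 over all genes tested), with summed levels of 3010 to 7070 CPM against 6030 to 15300 in WT. Neutrophil markers were lower for 10 of 10 tested, with sums of 6.06 to 61.4 CPM against 15.4 to 197 and Ly6g at 0 in every Het library. Endothelial markers were lower for 10 of 13 (sums 169 to 503 against 252 to 732) and stellate and fibroblast markers for 11 of 14 (378 to 1250 against 251 to 1590). Kupffer cell and macrophage markers were lower for 11 of 14 (649 to 1320 against 819 to 2040), among them Cd163, a scavenger receptor, which fell by 2.25 on the log2 scale (SE 0.41, adjusted p = 0.032) with no overlap, and erythroid markers for 8 of 8 (median -0.92). Skeletal muscle markers, of interest for Dmpk, were split, 1 lower and 2 higher. The remaining lists were split too. T and NK cell markers were lower for 5 of 11 (median 0.01) and B and plasma cell markers for 2 of 6 (median 0.03). Biliary and progenitor markers were lower for 4 of 10 (median 0.03) and mesothelial markers for 1 of 3 (median 0.01). The part of these shifts in the levels of the 10 genes was not tested.

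In FVB tumors, none of the 10 genes passed for Het against WT (limma, adjusted p under 0.05 over 16140 genes, of which 4 passed, 0.0248%). At an unadjusted p under 0.05, 5 of the 10 were lower, namely Rundc3b, Tuba8, D16Ertd472e, Dmpk and Chad, against 6.07% of all genes, and none was higher (8.14% of all genes were). Lower with no overlap were 2 genes, D16Ertd472e and Rundc3b, against 2.47% of all genes. Of the 8 genes lower in mixed-strain Het, 7 had a negative FVB difference (median -0.81), beside 47.0% of all genes. Many genes outside the set did the same. Of the 625 other genes that lay at -1 or below in mixed-strain Het and were measured in FVB, 77.6% had a negative difference there (median -0.65), and 36.5% were lower at an unadjusted p under 0.05. Of the 10 genes, 2 were lower at an unadjusted p under 0.05 without FVB WT 1 and 2, namely Rundc3b and Tuba8, against 2.73% of all genes, and none passed.

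Rundc3b read 14.2, 9.99, 8.28 and 9.65 CPM in FVB WT 1 to 4 and 6.28, 6.92, 4.06 and 3.56 in Het 1 to 4. All 4 WT libraries lay above all 4 Het libraries, a log2 difference of -1.04 ± 0.30 (95% interval -1.69 to -0.40, adjusted p = 0.146). Without WT 1 and 2 it was -0.84 (adjusted p = 0.531). In Homo it read 12.4, 9.19, 17.9 and 8.06 CPM, spread around the WT values, so Homo minus WT was 0.13 (95% interval -0.51 to 0.78). The Homo libraries all lay above the Het libraries, with a log2 difference of 1.18 ± 0.30 (unadjusted p = 0.00158, adjusted p = 1.0). In that comparison no gene of the table passed (0.00%; 623 had an unadjusted p under 0.05), and 0.923% of genes were higher in Homo with no overlap. The gap in Rundc3b between Homo and Het therefore did not pass after adjustment.

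D16Ertd472e read 18.9, 11.8, 6.77 and 7.01 CPM in FVB WT and 2.83, 2.27, 1.04 and 5.66 in Het, with no overlap. Its log2 difference of -2.03 ± 0.72 (95% interval -3.59 to -0.48, adjusted p = 0.229) was the largest of the set in FVB and the least precise. Homo libraries were scattered, at 0, 8.82, 12.7 and 2.20 CPM, and Homo minus WT was -1.35 (95% interval -2.91 to 0.20). Without WT 1 and 2 the Het difference was -1.48 (95% interval -3.62 to 0.67) and the Homo difference -0.80 (-2.95 to 1.35).

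Tuba8 was near the floor of the table, where values at or below 1 CPM are listed at 0. It read 2.28, 2.50, 3.16 and 4.96 CPM in WT, 2.53, 0, 0 and 1.11 in Het and 0, 3.05, 1.31 and 1.21 in Homo. A library of each deleted group, Het 1 and Homo 2, reached into the WT range. The log2 difference was -1.25 ± 0.41 for Het (adjusted p = 0.190) and -1.05 ± 0.41 for Homo (adjusted p = 0.408). Without WT 1 and 2 these were -1.61 and -1.42 (adjusted p = 0.438 and 0.693).

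Dmpk read 43.7, 49.2, 23.1 and 24.3 CPM in WT, 17.4, 21.3, 19.7 and 24.4 in Het and 24.6, 15.1, 15.8 and 23.9 in Homo. Only WT 1 and WT 2 stood clear of the other 10 libraries. The log2 difference was -0.69 ± 0.26 for Het (adjusted p = 0.248) and -0.78 ± 0.26 for Homo (unadjusted p = 0.00994, adjusted p = 0.318). Without WT 1 and 2 it was -0.20 (95% interval -0.73 to 0.32) for Het and -0.29 (-0.82 to 0.24) for Homo.

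Chad read 4.14, 4.76, 1.96 and 2.99 CPM in WT, 2.08, 1.95, 2.19 and 0 in Het and 2.14, 4.47, 5.03 and 4.11 in Homo. All 4 Het libraries lay below 3 of the 4 WT libraries, while the Homo and WT ranges overlapped. Het minus WT was -0.93 ± 0.37 (adjusted p = 0.274; -0.49 without WT 1 and 2), Homo minus WT 0.20 (0.63 without them) and Homo minus Het 1.12 ± 0.37 (unadjusted p = 0.00933, adjusted p = 1.0). Chad and Rundc3b were the 2 genes higher in Homo than in Het at an unadjusted p under 0.05, against 1.33% of all genes.

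Pkdcc, the gene with the clearest mixed-strain gap, showed none in FVB. It read 9.32, 10.5, 14.7 and 23.4 CPM in WT, 15.8, 10.8, 9.78 and 26.7 in Het and 4.29, 18.4, 26.9 and 14.3 in Homo. The 3 groups covered each other, with log2 differences of 0.10 ± 0.50 for Het (95% interval -0.97 to 1.17) and -0.04 for Homo (-1.11 to 1.04). The mixed-strain value of -2.70 lies outside both intervals.

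P2ry14 ran from 4.53 to 14.4 CPM in FVB WT, from 4 to 6.36 in Het and from 4.03 to 7.52 in Homo, and Aspdh from 9.38 to 31.6, 10.7 to 14.0 and 11.1 to 12.7. In both genes WT 1 was the highest library by a wide gap, and the 3 groups overlapped. Het minus WT was -0.39 (95% interval -1.11 to 0.34) for P2ry14 and -0.36 (-0.98 to 0.27) for Aspdh, and without WT 1 and 2 both turned to 0.08 and 0.13. The 2 genes that were higher in mixed-strain Het gave Het differences of 0.41 (-0.35 to 1.16) for Cd109 and 0.20 (-0.72 to 1.12) for Pcdh19. Cd109 ran from 2.41 to 5.31 CPM in WT, 3.56 to 5.21 in Het and 1.64 to 4.72 in Homo, and Pcdh19 stayed at 2.79 CPM or below in all 12 libraries.

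**Figure D3:**
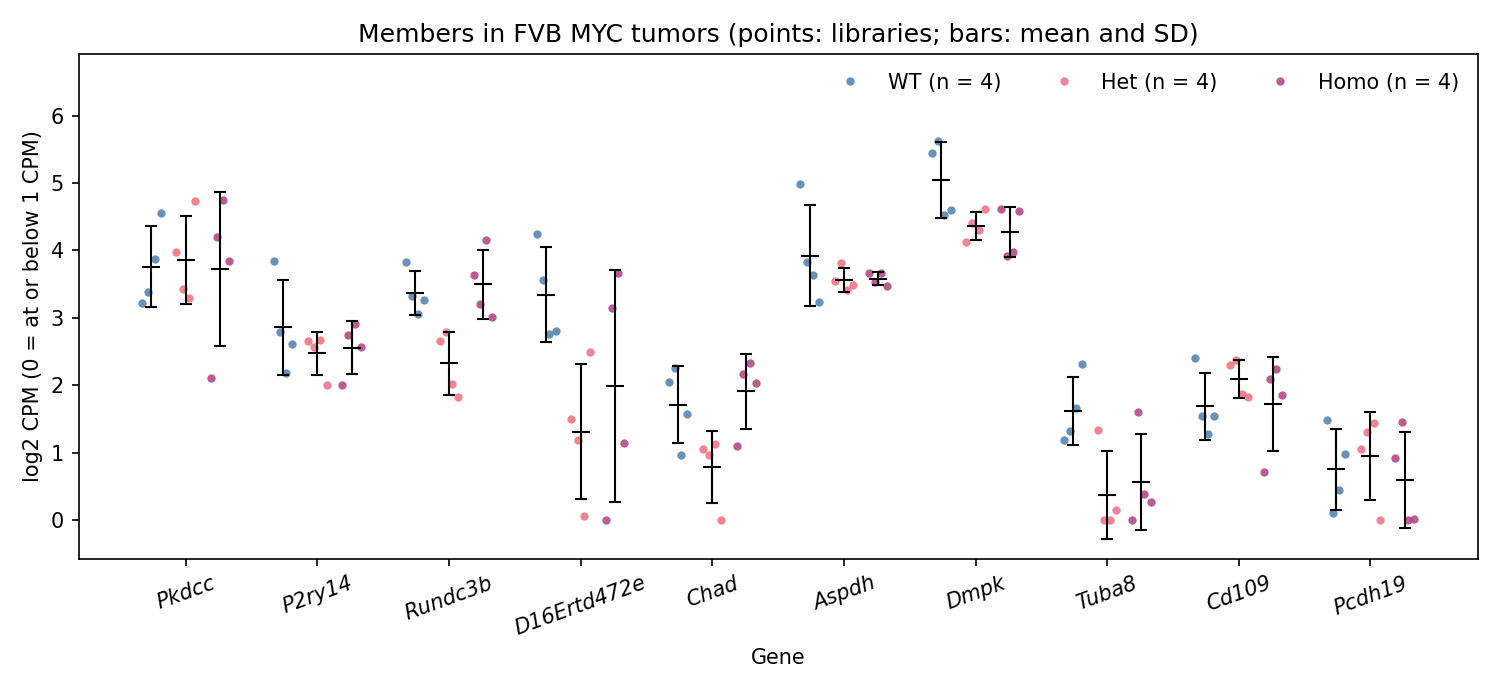
Levels of the 10 genes in FVB tumors as deposited log2 CPM, with 0 for values at or below 1 CPM, 4 WT, 4 Het and 4 Homo libraries per gene, points for libraries and bars for mean and SD. Rundc3b and D16Ertd472e keep WT above Het, Rundc3b in Homo overlaps the WT range, and the Pkdcc groups overlap.

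For Homo against WT, none of the 10 genes passed (7 genes of the table did, 0.0434%), none was free of overlap (4.07% of genes were), and 2, Dmpk and Tuba8, had an unadjusted p under 0.05, both lower, against 5.64% of all genes. With Het and Homo combined against WT, again none passed, while 79 genes did (0.489%). Dmpk (-0.73 ± 0.22, adjusted p = 0.145), Tuba8 (-1.15 ± 0.35, adjusted p = 0.149) and D16Ertd472e (-1.69 ± 0.63, adjusted p = 0.230) were lower at an unadjusted p under 0.05, against 6.97% of all genes. Without WT 1 and 2, 1 of the 10, Tuba8, was lower at that p, at -1.52 (95% interval -2.55 to -0.48), against 2.93% of all genes. These comparisons share the 4 WT libraries, so their values are not independent of each other.

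Set beside the mixed-strain values, the FVB Het intervals held the mixed-strain difference for 3 genes, D16Ertd472e, Dmpk and Tuba8, and missed it for 7. In those 7 the mixed-strain difference was larger in size. The mixed-strain values had been picked for their size, and the tables were normalized separately, so the gap between them was not tested. Levels differed as well. FVB WT tumors had a median of 12.6 CPM for Pkdcc, 6.51 for P2ry14 and 13.3 for Aspdh, next to mixed-strain medians of 65.7, 21.0 and 28.0 in WT and 7.17, 6.11 and 12 in Het. For these 3 genes the FVB WT median lay closer to the mixed-strain Het than to the mixed-strain WT median. Dmpk and D16Ertd472e in FVB WT (34.0 and 9.40 CPM) lay near the mixed-strain WT medians of 35.6 and 11.3. Rundc3b, Chad and Tuba8 in FVB WT (9.82, 3.57 and 2.83 CPM) lay between the mixed-strain medians. Which of these was closer depended on the scale, CPM or log2. The mixed-strain medians of these genes were 1.03, 0.877 and 1.32 in Het and 21.5, 8.93 and 5.83 in WT. Cd109 and Pcdh19 (2.91 and 1.66 CPM) lay near the mixed-strain WT medians of 2.39 and 1.99. Whether WT levels bear on the FVB differences was not tested. These levels come from tables with separate scaling and are set side by side only.

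Marker lists moved in FVB Het too, in both directions. Neutrophil markers summed to 0 to 1.19 CPM in Het against 2.53 to 130 in WT and 1.80 to 178 in Homo, with 9 of 10 lower in Het and 9 at 0 in every Het library. Endothelial markers were lower in Het for 11 of 13 (sums 139 to 230 against 171 to 391), stellate and fibroblast markers for 10 of 13 (606 to 833 against 586 to 958), erythroid markers for 8 of 8 and hepatocyte markers for 10 of 17 (5510 to 11700 against 8190 to 15400). Kupffer cell and macrophage markers were higher in Het for 9 of 14 and lower for 5 (median 0.15, sums 584 to 894 against 528 to 840). B and plasma cell markers were higher for 4 of 4 (median 0.55, sums 5.11 to 11.7 against 3.77 to 5.75). The part of the marker shifts in the values of the 10 genes was not tested. Ckm, the 1 measured skeletal muscle marker, was at 1.51 to 30.7 CPM in WT, 0 to 2.33 in Het and 0 in every Homo library, beside the Dmpk values above.

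**Figure D4:**
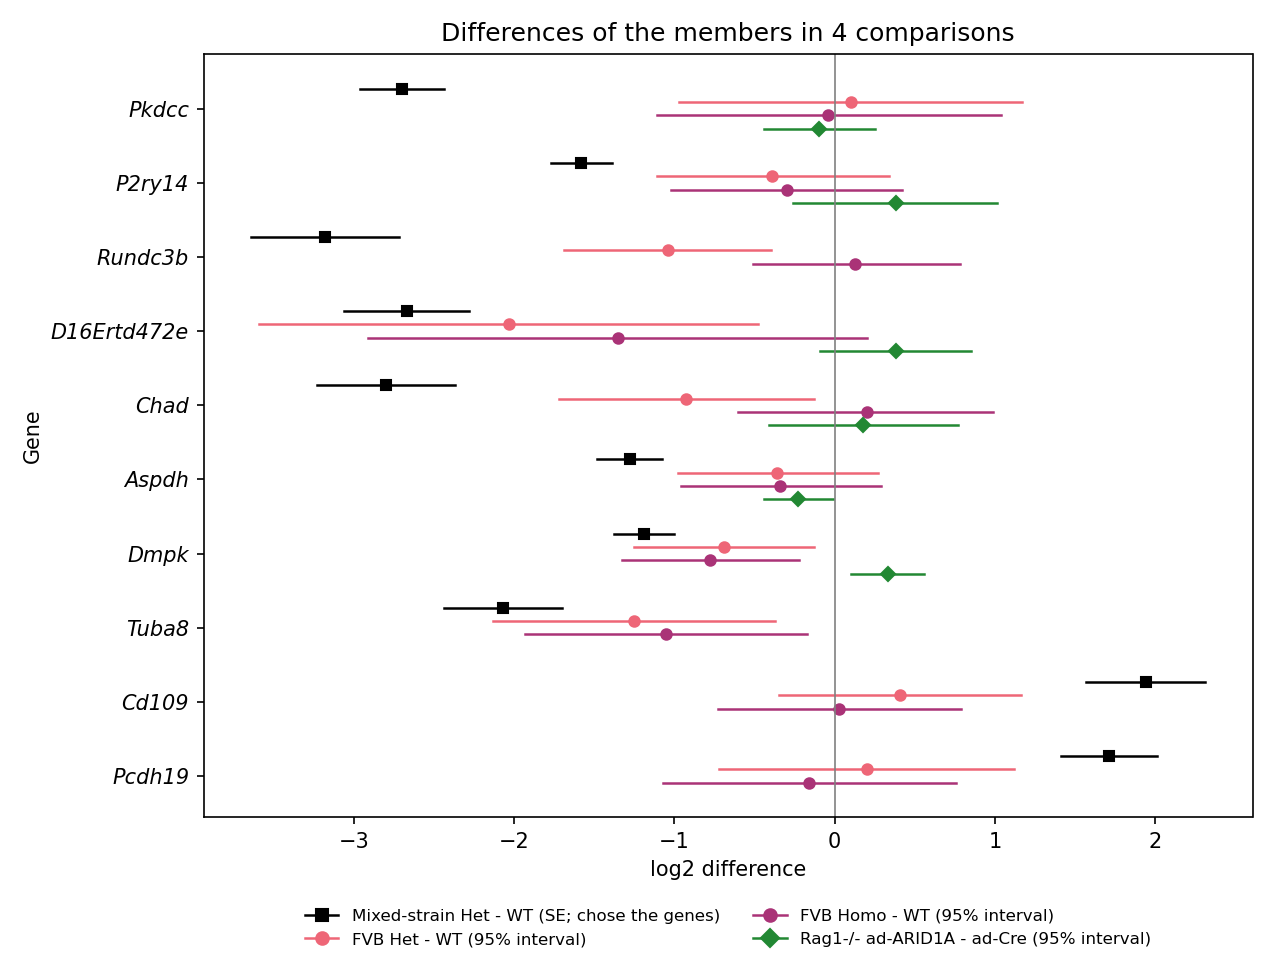
Log2 differences of the 10 genes in 4 comparisons: mixed-strain Het minus WT with SE, which chose the genes, and FVB Het minus WT, FVB Homo minus WT and ad-ARID1A minus ad-Cre with 95% intervals. The Pkdcc points lie at -2.70, 0.10, -0.04 and -0.10, and Dmpk at -1.19, -0.69, -0.78 and 0.33.

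In Rag1-/- livers given ad-ARID1A, none of the 6 measured genes passed against ad-Cre (limma, 45 of 14074 genes passed, 0.320%). Those with an unadjusted p under 0.05 were 2, against 12.5% of all genes, and they went opposite ways. Dmpk read 36.3, 38.1 and 39.1 CPM with ad-ARID1A and 30.1, 32.2 and 28.1 with ad-Cre, every ad-ARID1A library above every ad-Cre library. Its log2 difference was 0.33 ± 0.10 (95% interval 0.10 to 0.56, adjusted p = 0.247), and 13.9% of all genes were higher with no overlap. Aspdh read 71.0, 67.6 and 61.8 CPM with ad-ARID1A and 76.1, 73.5 and 85.0 with ad-Cre. All 3 ad-ARID1A libraries were lower, at -0.23 ± 0.10 (95% interval -0.44 to -0.01, adjusted p = 0.381), against 3.47% of all genes lower with no overlap. Aspdh is the gene of the set that was lower both in mixed-strain Het and with ad-ARID1A without overlap. These livers were wild type for Arid1a, so this sets the 2 directions side by side and is no test of a reversal.

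The other 4 genes overlapped between the viruses. D16Ertd472e read 10.3, 10.4 and 12.3 CPM with ad-ARID1A and 11.1, 7.26 and 7.46 with ad-Cre, a log2 difference of 0.38 (95% interval -0.09 to 0.85). P2ry14 read 8.40, 7.41 and 4.76 against 4.72, 6.77 and 4.23 CPM, a log2 difference of 0.38 (-0.26 to 1.01). In both genes the ad-ARID1A mean was higher and the interval took in 0. Chad ran from 4.69 to 7.06 against 3.78 to 5.74 CPM (0.18, interval -0.41 to 0.77) and Pkdcc from 14.2 to 18.8 against 16 to 19.2 (-0.10, interval -0.44 to 0.25). In all, 4 of the 6 genes had a positive difference, which is close to the 66.1% of all genes, and the median of the 6 was 0.26 beside 0.09 over all genes. With each library centred on its median, the median of all genes was 0.01, and the genes that passed were 25 higher and 8 lower in place of 39 and 6. Endothelial markers were higher with ad-ARID1A for 12 of 13 (sums 591 to 635 against 495 to 578 CPM) and stellate and fibroblast markers for 11 of 14 (659 to 763 against 401 to 693). Hepatocyte markers were lower for 12 of 17 and higher for 5 (median -0.12, sums 81200 to 91900 against 91200 to 98400), beside 33.7% of all genes lower. The part of these shifts in the values of the 6 genes, Aspdh among them, was not tested.

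**Figure D5:**
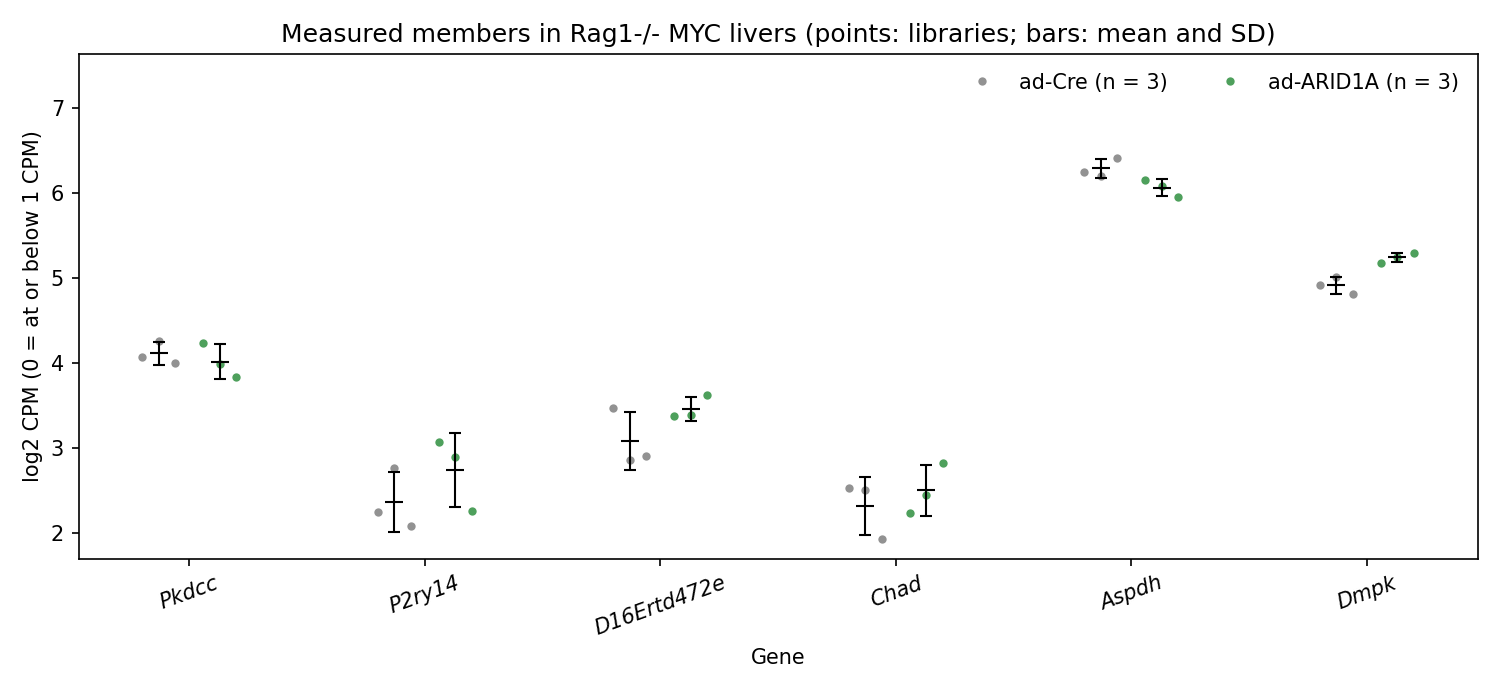
Levels of the 6 measured genes in Rag1-/- LAP-MYC livers as deposited log2 CPM, 3 ad-Cre and 3 ad-ARID1A libraries per gene, points for libraries and bars for mean and SD. Dmpk is higher and Aspdh lower with ad-ARID1A without overlap, and the other 4 genes overlap.

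Relatives of the 10 genes, taken from fixed family and pathway lists, did not pass in any of the FVB or Rag1-/- comparisons. The alpha-2-macroglobulin family of secreted protease traps and complement proteins, to which Cd109 belongs, was lower in FVB Het for 8 of 8 measured relatives (median -1.03), while Cd109 itself was at 0.41. Mug2 (-1.65 ± 0.40, adjusted p = 0.101) and A2m (-2.55 ± 0.76, adjusted p = 0.159), both protease inhibitors of plasma, had the smallest p there. The same 8 relatives were lower in mixed-strain Het, with a median of -1.56 beside 1.94 for Cd109. In FVB Homo 6 of the 8 were lower and 2 higher (median -0.69), with Cd109 at 0.03, and none of the FVB values passed. The small leucine-rich proteoglycans beside Chad were lower for 10 of 13 in mixed-strain Het (median -0.78) and for 6 of 12 in FVB Het (median -0.06). Genes of NAD supply beside Aspdh were lower for 16 of 18 in mixed-strain Het (median -0.25) and 8 of 16 in FVB Het (median -0.10). Nadk2, a mitochondrial NAD kinase, had the smallest p there and was at 0.37 ± 0.11 (adjusted p = 0.149), with no overlap, while Kmo, a kynurenine pathway enzyme, was at -1.05 (adjusted p = 0.173).

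Receptors related to P2ry14 (the P2Y family) were lower for 6 of 7 in mixed-strain Het (median -0.37) and 2 of 4 in FVB Het. Secreted kinases related to Pkdcc were lower for 3 of 8 and 4 of 8, with medians of 0.23 and -0.02, and other tubulins for 5 of 15 and 10 of 13, with medians of 0.07 and -0.19. The tubulin Tuba1c had the smallest p in FVB Het, at -0.63 ± 0.17 (adjusted p = 0.123). Delta-protocadherins related to Pcdh19 were lower for 2 of 4 and 4 of 4, kinases and CUG-repeat partners related to Dmpk for 3 of 12 and 7 of 12, and RUN domain relatives of Rundc3b for 3 of 5 and 1 of 5. TGF-beta pathway genes, listed for Cd109, were lower for 14 of 21 (median -0.12) and 12 of 21 (median -0.06). Outside the alpha-2-macroglobulin family no family had a median past 0.50 in FVB Het.

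Within groups, the 10 genes did not vary together in the mixed-strain libraries. After each group's mean was subtracted, the 45 pairs had a median Pearson correlation of -0.02 over 16 libraries (from -0.56 to 0.65), and 0.27 over the 12 FVB libraries (from -0.68 to 0.85). For each gene, the genes most like it over the mixed-strain libraries reached correlations of 0.74 to 0.86. Few of these were as high in FVB. Pkdcc and Spaca6 gave 0.85 and 0.79, Rundc3b and Cyp39a1 (an oxysterol hydroxylase of bile acid synthesis) 0.85 and 0.70, and D16Ertd472e and Dram1 (a p53-induced regulator of autophagy) 0.82 and 0.68. By contrast, P2ry14 and Lct gave 0.81 and -0.55. These are descriptions over libraries that share depth and tissue makeup, each the highest of many genes.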

How the data were processed

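Values came from 3 deposited tables, all on a log2 scale. Per the submitters' processing notes the authors used Trim Galore, HISAT2, SAMtools and featureCounts with GRCm38 (mm10). The authors deposited the FVB (16140 genes) and Rag1-/- (14074 genes) tables as log2 CPM, with values at or below 1 CPM at 0. The mixed-strain table is named RPKM, but its back-transformed values summed to nearly the same total in each library, in equal steps,, so it was read as log2(CPM + 1) and fitted as log2(CPM + 0.5) for 17552 genes with a mean CPM of at least 0.5. There, 27 symbols had become dates and are not named. No CPM column was left unmapped. The ad-ARID1A samples carry ad-Cre column names in their labels and were matched by number. Read totals were recovered from low values, whole within 0.1 reads. Higher values were too coarsely rounded, so no count test was run. Fold changes on these floored or offset scales understate those of low genes.

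Each table was fitted alone with limma 3.58.1 in R 4.3.3 (lmFit, eBayes with a trend, tested on simulated data), with the 3 FVB groups in a single fit. The threshold was an adjusted p under 0.05 (Benjamini-Hochberg, across the genes of a table). All tests are two-sided, and intervals are 95%. Groups were free of overlap when the lowest library of the higher group exceeded the highest of the lower group. The 10 genes and the lists were chosen with earlier results of these data known. Genes named beside the 10 were drawn from the relatives with the 2 smallest p of a list, neighbors past a log2 difference of 1 and the 2 most correlated genes, of which those with values in both tables were picked after seeing them. Alternatives are given in the closing section.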

Additional observations from a re-analysis of the deposited data

Results flagged for a closer look

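In 50 groups of 4 to 8 libraries, 5 values lay farther from the rest of their group than Dixon's 95% limit allows, where chance alone flags about 1 group in 20. Rundc3b was at 12.7 CPM in mixed-strain Het 2, next to 2.43 in the nearest library, and Cd109 at 30.3 CPM in mixed-strain Het 5, next to 10.3. In FVB Het 4, P2ry14 was at 4 CPM, next to 5.94, and Chad was listed at 0, next to 1.95. Tuba8 was at 2.53 CPM in FVB Het 1, next to 1.11. Het 5 also lay apart on the second principal component of the mixed-strain table.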

How the results depend on the processing

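In every alternative run for FVB and Rag1-/- (replicate block, no variance trend, median centring, a mean log2 CPM of at least 1, log2(CPM + 1), only the 2 groups compared, each library left out, and, chosen after seeing the data, without FVB WT 1 and 2), 0 of the listed genes passed. The mean filter left 8 of the 10 genes in FVB. The mixed-strain signs held in all alternatives, and 8 to 9 genes showed no overlap when a library was left out. Of the 10, 7 to 10 were among the genes that passed in that table: 7 without Het 1, Het 3, Het 6, WT 3 or WT 8 and with no filter, where Pcdh19, Tuba8 and Cd109 dropped out. How many genes passed in a table did move, and the cause was not tested. In the mixed-strain table the count of 28 became 75 with the replicate block, 14 with no filter, 16 without WT 2 and Het 5, and 8 (without Het 1 or Het 6) to 138 (without Het 2) with a library left out. For FVB Het against WT the count of 4 became 0 with the block, 7 when centred (1 higher and 6 lower, in place of 4 lower), 1 with each of the mean filter, log2(CPM + 1), 2 groups only and no WT 1 and 2, and 0 to 256 with a library left out (256 without WT 4, 169 without Het 4). For Homo against WT the count of 7 became 1 with the block, 0 with 2 groups, 3 without WT 1 and 2, and 0 to 36 with a library left out. For Het and Homo together the count of 79 became 11 without a trend, 14 without WT 1 and 2, and 3 to 396 with a library left out (396 without WT 4). Homo against Het gave 0 to 3, and ad-ARID1A against ad-Cre, with 45, gave 1 without a trend and 0 to 19 with a library left out. The labels do not say whether replicate numbers pair the samples. Deviations of same-numbered libraries correlated between -0.118 and 0.242 (mixed-strain), -0.20 and 0.278 (FVB) and -0.0575 and 0.0451 (Rag1-/-). The medians were 0.0473, 0.021 and 0.0139, beside 0.024, -0.0147 and 0.0134 for libraries with other numbers. Best correlated with their own number were 3 of 16, 7 of 12 and 2 of 6 libraries. The share that chance alone gives differs between the tables with their groups and libraries, so these counts are not comparable. Whether the numbers mark pairs or a shared batch, in FVB above all, was not tested. Without FVB WT 1 and 2 the sign turned in 9 values: Het P2ry14 0.08, Pkdcc -0.35 and Aspdh 0.13, Homo P2ry14 0.16 and Aspdh 0.15, and for both together P2ry14 0.12, Chad 0.07, Pkdcc -0.42 and Aspdh 0.14. With single libraries left out, signs turned for values near 0. For Het and Homo together the log2 differences that changed sign ran over Pcdh19 -0.19 to 0.26, Pkdcc -0.15 to 0.30 and Aspdh -0.58 to 0.01. For Homo against Het the log2 differences that changed sign ran over Aspdh -0.03 to 0.10, P2ry14 -0.07 to 0.27, Pkdcc -0.48 to 0.40, Dmpk -0.20 to 0.03 and Tuba8 -0.15 to 0.52. For FVB Het against WT the log2 differences that changed sign ran over Pkdcc -0.19 to 0.36 and Pcdh19 -0.01 to 0.52. For Homo against WT the log2 differences that changed sign ran over Pkdcc -0.38 to 0.50, Cd109 -0.14 to 0.37, Rundc3b -0.09 to 0.30, Pcdh19 -0.44 to 0.09, P2ry14 -0.53 to 0.03, Aspdh -0.57 to 0.02 and Chad -0.05 to 0.46. For ad-ARID1A against ad-Cre the log2 differences that changed sign ran over Chad -0.01 to 0.32. Depth limits the low genes, with 0 to 13 reads in mixed-strain Het for Chad and Tuba8.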
